A study of Mus musculus with 6 samples.

Results

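Transcripts of 10 genes of dendritic cells and of the XCL1-XCR1 chemokine pair were followed in RNA sequencing of mouse splenocyte cultures. They are the ligand gene Xcl1 and its receptor gene Xcr1, the type 1 dendritic cell receptor gene Clec9a, the transcription factor genes Batf3, Irf8 and Zbtb46, the receptor gene Flt3, the integrin gene Itgax, the surface protein gene Cd83 and the chemokine gene Ccl22. They were taken by symbol from the deposited count table, which held all 10 among 23453 gene rows. Spleen cells of OT1 mice on the C57BL/6 strain, whose T cell receptor transgene recognises an OVA peptide, were given that peptide for 48 h and then TCM or FCM for 8 h, with 3 libraries each. All 6 libraries share the OT1 transgene and the peptide, the labels expand neither TCM nor FCM, and samples given FCM are titled vehicle. No label names a sort, an age or separate animals or cultures behind the replicates, so p-values cover only the variation among these libraries, possibly a technical one.

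The titles of the count table and the normalized table contradict each other. Each of the 6 normalized columns was proportional to the counts titled as the same replicate of the opposite group, and 0 were proportional to those under their own title. TCM and FCM here are always the count table's titles, and each direction given turns round if the other header is the right one. Nothing in the labels decides between them.

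Dendritic cells take up antigen and present it to T cells. Conventional type 1 dendritic cells (cDC1) present antigen to CD8+ T cells and need the transcription factors BATF3 and IRF8, while FLT3 and its ligand FLT3LG sustain dendritic cell development. Activated CD8+ T cells and NK cells secrete the chemokine XCL1, and its receptor XCR1 marks cDC1 in mouse and human. CCL22, made by mature dendritic cells, acts on the receptor CCR4 of activated and regulatory T cells. Batf3, Irf8, Cd83 and Ccl22 are also transcribed by activated lymphocytes, so in spleen cultures these genes do not mark dendritic cells alone. In bulk RNA, fewer cells of a type and less RNA per cell cannot be told apart.

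The sequences before the start sites of the 4 members that differed most between the groups are shown first, each 250 bases long, from RefSeq on GRCm38.p6. The Xcl1 stretch lies at chr1:164935523-164935772 on the minus strand, that of Clec9a at chr6:129408612-129408861, that of Itgax at chr7:128129300-128129549 and that of Batf3 at chr1:191098164-191098413, the last 3 on the plus strand. Start sites are those of RefSeq, which lie 567 bases downstream of the GENCODE M21 gene start for Batf3, 5 for Xcl1, 3 for Itgax and 0 for Clec9a, so the Batf3 stretch falls within the gene as GENCODE places it. Capitals mark the only match among 4 motifs searched on both strands.
Xcl1: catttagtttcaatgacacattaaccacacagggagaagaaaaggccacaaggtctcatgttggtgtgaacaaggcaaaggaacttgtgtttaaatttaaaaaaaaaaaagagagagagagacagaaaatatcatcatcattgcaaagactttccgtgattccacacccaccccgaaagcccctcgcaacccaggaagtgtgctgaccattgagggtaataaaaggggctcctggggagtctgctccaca
Clec9a: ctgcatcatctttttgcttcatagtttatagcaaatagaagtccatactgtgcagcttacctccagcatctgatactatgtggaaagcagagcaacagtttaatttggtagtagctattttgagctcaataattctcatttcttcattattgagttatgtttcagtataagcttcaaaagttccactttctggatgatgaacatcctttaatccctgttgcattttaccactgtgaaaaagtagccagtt
Itgax: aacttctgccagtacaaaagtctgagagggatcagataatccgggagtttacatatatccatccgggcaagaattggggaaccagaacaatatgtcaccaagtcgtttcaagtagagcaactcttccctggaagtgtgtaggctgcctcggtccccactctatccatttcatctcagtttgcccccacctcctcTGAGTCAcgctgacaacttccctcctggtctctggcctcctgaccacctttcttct
Batf3: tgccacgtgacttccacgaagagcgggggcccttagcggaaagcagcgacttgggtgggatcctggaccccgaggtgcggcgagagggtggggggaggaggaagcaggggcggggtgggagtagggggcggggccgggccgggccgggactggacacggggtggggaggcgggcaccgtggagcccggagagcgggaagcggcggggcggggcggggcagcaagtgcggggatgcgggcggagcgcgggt
The motifs were TGANTCA (AP-1), GAAA followed after 2 bases of any kind by GAAA (IRF), GGG followed after 2 such bases by TTTCC (NF-kB) and TGGAAAA (NFAT). Over the 10 such stretches available for 9 members, TGANTCA occurred in Itgax, 56 to 50 bases before the start, and in Zbtb46, 61 to 55 bases before a RefSeq start that lies 35038 bases downstream of the GENCODE gene start. The other motifs had no match in these windows. Among 32851 mouse promoters of the same length, 6.75% held the AP-1 motif, 2.98% the IRF motif, 1.41% the NF-kB motif and 5.93% the NFAT motif. The Batf3 stretch was 76.0% G and C, against 44.0% for Xcl1, 35.6% for Clec9a and 50% for Itgax. A match describes these letters only. Cd83 is named without a sequence.

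The libraries held 17166687 to 21197117 counts with TCM and 18729982 to 25789381 with FCM, so that a single count was worth 0.0388 to 0.0583 counts-per-million units (CPM). Levels below are CPM scaled by TMM, edgeR's correction for library composition. The quasi-likelihood test of edgeR was run on 12423 genes, of which 58.8% had a Benjamini-Hochberg adjusted p under 0.05, 28.8% higher and 30.0% lower in TCM. The median log2 fold change of all genes was -0.018, and -0.23 with library totals alone as scaling, under which 37.4% of the calls were higher in place of 49.0%. Replicate 1 of each group stood apart from replicates 2 and 3 (chi-square per gene 62.0 to 110.4 in pairs that held it, against 7.48 in TCM and 5.08 in FCM between replicates 2 and 3). The label calls the cells cytotoxic T lymphocytes. Cd8a, a co-receptor chain of these cells, had 69.7 ± 3.12 CPM in TCM and 110.9 ± 2.20 CPM in FCM (SD, n = 3 each), while its partner chain gene Cd8b1 had 81.6 ± 4.43 CPM in TCM and 78.2 ± 5.69 CPM in FCM and did not pass. B cell markers were also present, at 1041 to 1225 summed CPM in TCM and 1877 to 2242 in FCM.

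Of the 10 members, 9 passed the filter on low counts, and Xcr1 did not. Clec9a, Xcl1 and Itgax fell in TCM, Batf3 and Ccl22 rose, and Irf8, Flt3, Zbtb46 and Cd83 did not pass the test. The 3 falls and 2 rises among 9 tested members lie near the shares of all genes, 30.0% lower and 28.8% higher, so the number of members called is not a result about them. Each count of list genes below is to be read beside the same shares. The CPM of the groups did not overlap in 5 members, 3 of them lower in TCM, as in 64.2% of all tested genes in either direction and 33.6% with TCM lower. All 3 falls were of at least 2-fold, as were 10.5% of all genes tested. The plot of CPM by library shows all 10 genes, and that of the fold changes shows their intervals.

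**Figure D1:**
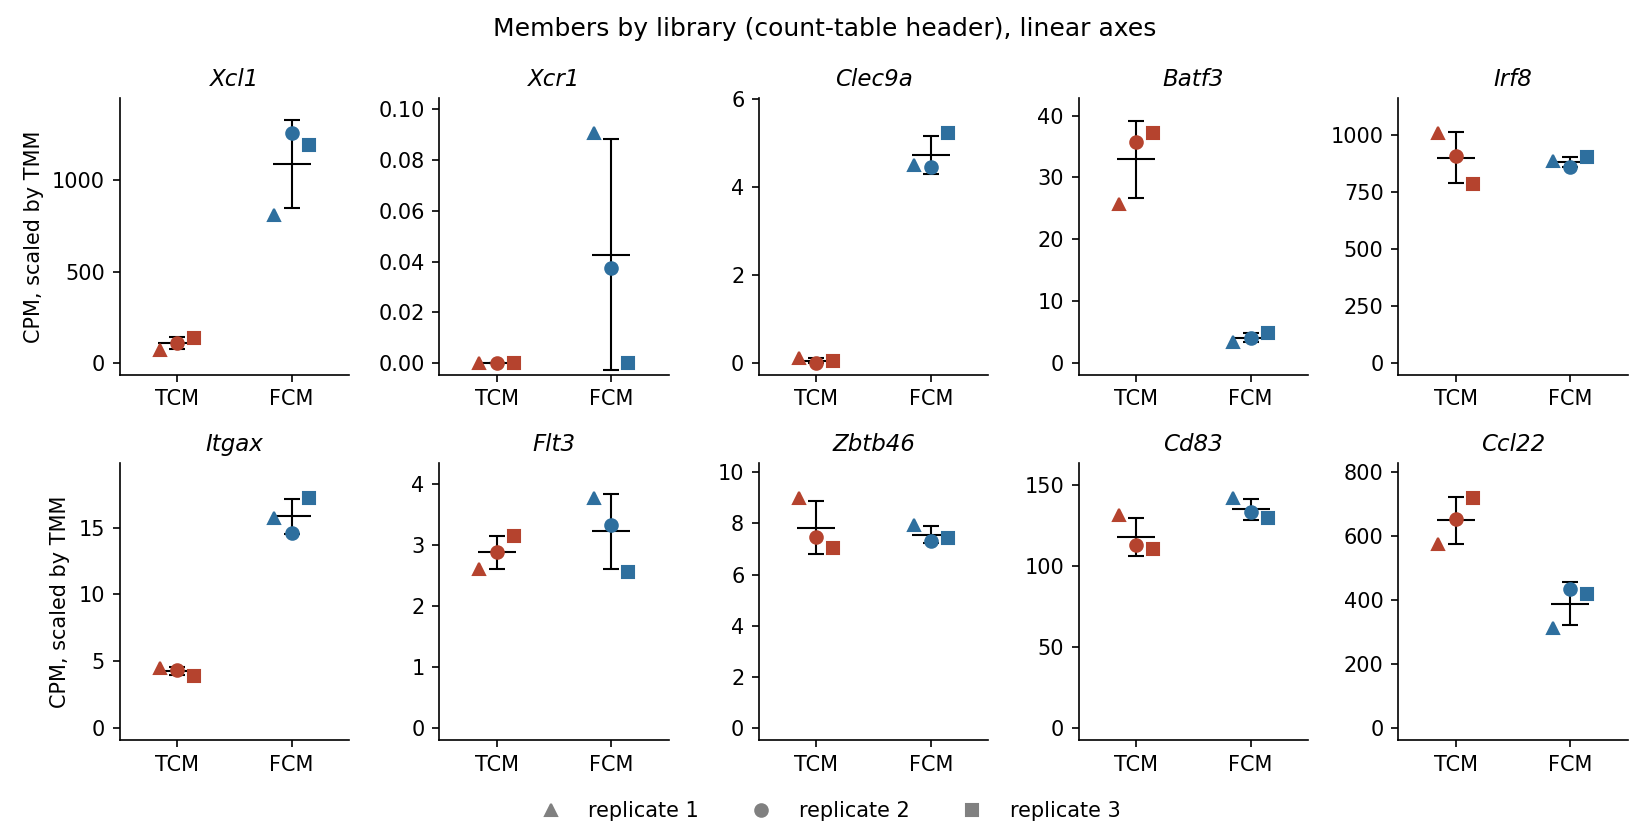
CPM scaled by TMM (linear vertical axes, a scale per gene) for the 10 members in 3 TCM and 3 FCM libraries by the count table's header; points are libraries, with a symbol per replicate number, and bars give the mean and SD. The groups are apart in Xcl1, Clec9a, Batf3, Itgax and Ccl22 and overlap in Irf8, Flt3, Zbtb46 and Cd83, and Xcr1 has counts in 2 FCM libraries only.

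The ligand of the pair, Xcl1, had 73.9, 111.8 and 138.5 CPM in TCM replicates 1 to 3, against 811.9, 1261 and 1191.5 CPM in FCM replicates 1 to 3. Every TCM library lay far below every FCM library, and in each group replicate 1 was the lowest. The gene, which encodes a secreted chemokine and lies on chromosome 1 (164931644 to 164935527, GENCODE M21 on GRCm38), averaged 108.0 ± 32.5 CPM in TCM and 1088 ± 241.6 CPM in FCM (SD, n = 3 each). This 10.1-fold fall, a log2 change of -3.33 ± 0.28 (SE), passed edgeR's test (adjusted p = 2.01e-05). Markers of cells known to make XCL1 did not all fall with it. Of 12 T cell markers 2 rose (1 without TCM replicate 2), 3 fell and 7 did not pass, beside 28.8% higher and 30.0% lower among all genes. With the trend on transcript length removed, 1 T cell marker rose and 5 fell. The summed level of these T cell markers was 1797 to 2110 CPM in TCM against 1240 to 1461 CPM in FCM. Thy1 alone had 812.4 to 1019 CPM in TCM and 276.8 to 368.4 CPM in FCM, and the other 11 T cell markers summed to 985.1 to 1092 CPM in TCM and 963.1 to 1093 CPM in FCM, which overlap. NK cell markers summed to 91.9 to 146.6 CPM in TCM and 106.6 to 129.1 CPM in FCM, with Ncr1, an activating receptor gene of NK cells, at 2.09 ± 0.203 CPM in TCM and 3.54 ± 0.487 CPM in FCM (SD, n = 3 each). Gzma is a granzyme that cytotoxic T cells also make. Without it the other 7 NK genes summed to 30.7 to 33.9 CPM in TCM and 65.8 to 71.9 CPM in FCM. Eomes alone had 19.6 to 20.5 CPM of this sum in TCM and 48.1 to 55.7 CPM in FCM. Eomes thus made up most of this sum in every library. Ncr1 and Klre1 fell as well (log2 change -0.75 and -0.82), with groups that did not overlap. Without TCM replicate 1 or FCM replicate 2, 2 NK genes fell in place of 3. Both sums without a gene were chosen after seeing the data. Which cells the Gzma and Eomes reads came from was not tested, so neither NK sum measures NK cells. Of the NK list 6 of 8 genes were tested, of which 1 rose, 3 fell and 2 (Klrb1c and Klri2) did not pass. Klra4 had 0 counts in all 6 libraries. The part of either cell type in the Xcl1 values was not tested.

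The receptor gene Xcr1 (chromosome 9, 123852315 to 123862029) was at the limit of detection. It had 0 counts in the 3 TCM libraries, against 2, 1 and 0 counts in FCM replicates 1 to 3. Over the group, 0 counts allow up to 0.0579 CPM in TCM (a floor of 3 counts), while the 3 counts in FCM amount to 0.0402 CPM, so no difference was detectable at this depth. Intervals and floors cover counting error only.

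Clec9a encodes a cDC1 receptor (DNGR-1) that recognises actin filaments exposed by dead cells. It had 2, 0 and 1 counts in TCM replicates 1 to 3, against 99, 119 and 135 counts in FCM replicates 1 to 3. Transcripts of this gene were thus nearly absent from each TCM library and present in each FCM library, at 0.0542 ± 0.0532 CPM in TCM and 4.73 ± 0.440 CPM in FCM (SD, n = 3 each). The summed counts, 3 in TCM and 353 in FCM, gave a level 81.8 times higher in FCM, with a 95% exact (Clopper-Pearson) counting interval of 27.8 to 398.8. The gene (chromosome 6, 129408862 to 129424763) passed edgeR's test (adjusted p = 2.93e-06), with a fitted log2 change of -6.22, or -7.04 without TCM replicate 1, which holds 2 of the 3 TCM counts.

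Other genes of the cDC1 programme were chosen as a list apart from the members. Of its 11 genes 9 were tested, of which 4 fell, 3 rose and 2 did not pass, beside 30.0% lower and 28.8% higher among all genes. The median log2 change was -0.35, against -0.018 for all genes. Naaa, an enzyme that breaks down fatty acid ethanolamides, had 9.95, 11.6 and 12.4 CPM in TCM replicates 1 to 3 and 75.3, 85.9 and 83.6 CPM in FCM replicates 1 to 3, a fall of 7.23-fold (edgeR adjusted p = 8.25e-07). Wdfy4, which mouse cDC1 need for cross-presentation, fell 3.04-fold to 51.3 ± 4.45 CPM in TCM, against 156.0 ± 21.1 CPM in FCM (SD, n = 3 each). Tlr3, a sensor of double-stranded RNA, fell 4.85-fold to 0.483 ± 0.0778 CPM in TCM, against 2.36 ± 0.255 CPM in FCM (SD, n = 3 each). The 3 that rose were Nfil3, Id2 and Snx22, and Nfil3 and Id2 encode transcription regulators used well beyond dendritic cells. Cadm1 was the other gene that fell. In TCM, where Clec9a was nearly absent, Wdfy4 still had a mean of 51.3 CPM and Naaa 9.95 to 12.4 CPM. B cell markers fell in the same libraries (7 of 10 tested, 0 rose), as did macrophage and monocyte markers (10 of 12 tested, 1 rose). The part of these cells in the list genes that fell was not tested. Which cells the list genes came from, those that fell as well as those that rose, was not tested.

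Among the transcription factors of the cDC1 programme, Batf3 rose while Irf8 did not pass. Batf3 (chromosome 1, 191097847 to 191108945) had 25.8, 35.8 and 37.3 CPM in TCM replicates 1 to 3, against 3.49, 4.12 and 4.81 CPM in FCM replicates 1 to 3. The lowest TCM library was above the highest FCM library, and replicate 1 was again the lowest of each group. The gene averaged 32.9 ± 6.25 CPM in TCM and 4.14 ± 0.657 CPM in FCM (SD, n = 3 each), a 7.92-fold rise (log2 change 2.98 ± 0.19 SE, edgeR adjusted p = 3.24e-06). Its direction in the same libraries was thus opposite to that of Clec9a and the 4 cDC1 list genes that fell. It was the same as that of the 3 that rose, Nfil3, Id2 and Snx22.

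Irf8 encodes an interferon regulatory factor that cDC1, B cells and activated T cells use. It had 1009.5, 905.6 and 785.0 CPM in TCM replicates 1 to 3, against 883.9, 859.6 and 902.7 CPM in FCM replicates 1 to 3. The TCM libraries lay on either side of the FCM range, at 900.0 ± 112.4 CPM in TCM and 882.1 ± 21.6 CPM in FCM (SD, n = 3 each). The log2 change of Irf8 (chromosome 8, 120736358 to 120756694) was 0.029 with a 95% interval of -0.35 to 0.40 (edgeR adjusted p = 0.889). B cell markers fell in the same libraries (7 of 10 tested, 0 rose and 3 did not pass, median log2 change -1.07), and their part in the Irf8 level was not tested. With the replicate block, 1 B cell marker rose and 7 fell.

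Relatives of BATF3 moved in both directions. Batf, a factor of activated T cells, had 284.2, 414.4 and 463.3 CPM in TCM replicates 1 to 3 and 57.0, 86.4 and 88.2 CPM in FCM replicates 1 to 3, and rose 5.01-fold (edgeR adjusted p = 6.34e-05). Batf2, an interferon-inducible member of the family, fell 3.46-fold to 18.9 ± 1.64 CPM in TCM, against 65.3 ± 12.8 CPM in FCM (SD, n = 3 each). Both belong to a list of 18 dendritic cell development genes, of which 17 were tested, 6 rose, 6 fell and 5 did not pass. Its median log2 change was -0.33, against -0.018 for all genes, of which 28.8% were higher and 30.0% lower. Csf2rb, the shared signalling chain of the receptors for GM-CSF, IL-3 and IL-5, fell 3.20-fold to 42.1 ± 8.55 CPM in TCM, against 134.7 ± 1.67 CPM in FCM (SD, n = 3 each).

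The growth factor receptor gene Flt3 (chromosome 5, 147330741 to 147400489) was low in all libraries. It had 2.61, 2.88 and 3.15 CPM in TCM replicates 1 to 3, against 3.77, 3.33 and 2.56 CPM in FCM replicates 1 to 3, and the groups overlapped. The log2 change was -0.16 with a 95% interval of -0.60 to 0.28 (edgeR adjusted p = 0.505). Its ligand gene Flt3l had 22.4, 29.5 and 32.4 CPM in TCM replicates 1 to 3 and 16.1, 20.3 and 21.2 CPM in FCM replicates 1 to 3. The groups of Flt3l did not overlap, and it rose 1.46-fold (log2 change 0.55 ± 0.17 SE, edgeR adjusted p = 0.019). It did not pass with library totals alone (log2 change 0.32, adjusted p = 0.12, edgeR), nor without TCM replicate 2 (0.0679), TCM replicate 3 (0.0661) or FCM replicate 1 (0.0573), the adjusted p of edgeR being given for each.

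Zbtb46 encodes a transcription factor of conventional dendritic cells and their committed precursors. Its level was 8.99, 7.46 and 7.02 CPM in TCM replicates 1 to 3, against 7.94, 7.30 and 7.44 CPM in FCM replicates 1 to 3. The groups overlapped, and the log2 change of the gene (chromosome 2, 181387762 to 181459426) was 0.053 with a 95% interval of -0.26 to 0.36 (edgeR adjusted p = 0.755). Flt3 and Zbtb46 thus differed in their calls from Clec9a and Itgax, and the differences between these genes' changes were not tested.

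Itgax encodes CD11c, an integrin chain of dendritic cells that macrophages and other myeloid cells also carry. It had 4.52, 4.39 and 3.93 CPM in TCM replicates 1 to 3, against 15.7, 14.6 and 17.2 CPM in FCM replicates 1 to 3. All TCM libraries lay below all FCM libraries, and the spread within each group was small beside the gap. The gene (chromosome 7, 128129547 to 128150657) averaged 4.28 ± 0.309 CPM in TCM and 15.9 ± 1.31 CPM in FCM (SD, n = 3 each), a 3.70-fold fall (log2 change -1.89 ± 0.13 SE, edgeR adjusted p = 6.77e-06). Macrophage and monocyte markers fell in the same libraries: of 12 tested 10 fell, 1 rose (Cd14) and 1 did not pass (Cd68), and their summed level was 232.0 to 278.6 CPM in TCM against 878.7 to 1120 CPM in FCM. Neutrophil markers fell as well (10 of 10 tested), at 1132 to 2179 summed CPM in TCM against 8020 to 12570 in FCM. The part of these cells in the Itgax values was not tested.

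**Figure D2:**
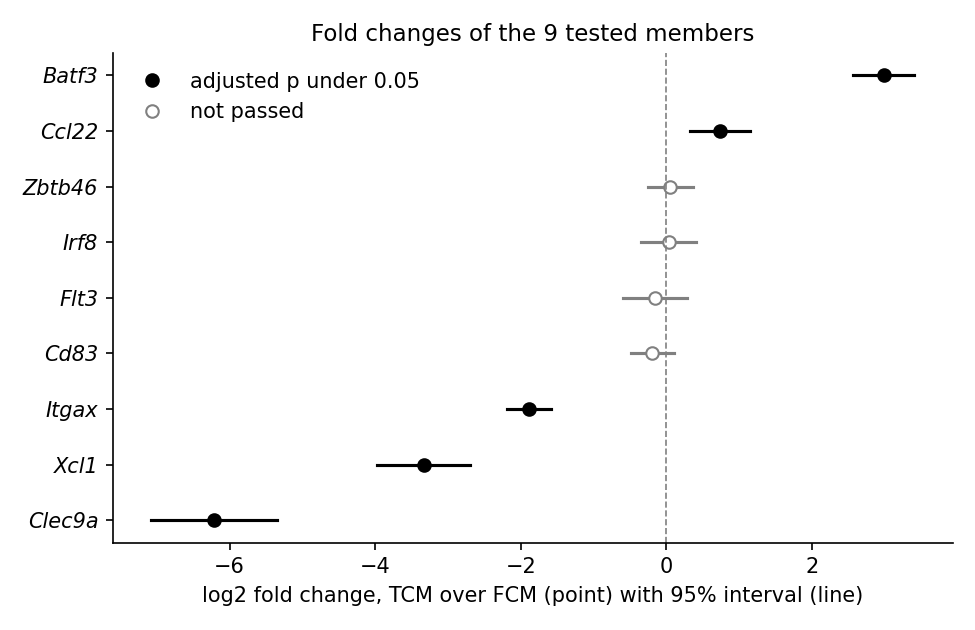
Log2 fold change, TCM over FCM by the count table's header (horizontal axis), for the 9 tested members (rows); points are edgeR estimates, lines are 95% intervals, and filled points passed an adjusted p of 0.05. Clec9a, Xcl1 and Itgax lie left of 0, Batf3 and Ccl22 right of it, and the other 4 intervals include 0; the Clec9a estimate rests on 3 counts in TCM.

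Other dendritic cell subsets were followed by their own lists, beside 30.0% of all genes lower and 28.8% higher. Of the type 2 conventional dendritic cell list, 10 of 12 genes were tested, of which 7 fell, 1 rose (Dtx1) and 2 did not pass (median log2 change -1.38). The transcription factor gene Klf4 fell 3.45-fold to 9.58 ± 1.82 CPM in TCM, against 32.9 ± 4.67 CPM in FCM (SD, n = 3 each). The inhibitory lectin receptor gene Clec12a fell 3.60-fold and Notch2, whose receptor splenic type 2 cells need in mouse, 2.39-fold. Cd209a had 0 counts in all 6 libraries. Of the plasmacytoid dendritic cell list 10 of 11 genes were tested, of which 4 fell, 1 rose (Bst2) and 5 did not pass (median -0.19). Without TCM replicate 1, 7 of this list fell, and 0 rose when any other single library was left out.

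In that list Siglech, the surface receptor that defines mouse plasmacytoid dendritic cells, had 0.106, 0.0655 and 0.112 CPM in TCM replicates 1 to 3 and 0.817, 0.935 and 0.620 CPM in FCM replicates 1 to 3. These values are 2, 1 and 2 counts in TCM replicates 1 to 3 and 18, 25 and 16 counts in FCM replicates 1 to 3. Siglech was low in all libraries and fell (log2 change -2.96 ± 0.44 SE, edgeR adjusted p = 0.00051), an estimate that rests on few reads in TCM. Irf7, an interferon regulatory factor that many cell types induce, fell 5.81-fold, and Ccr9, a gut-homing chemokine receptor, fell 4.53-fold. Ccr9 had only 22 counts summed over TCM and 143 over FCM. The 6 lists of dendritic cell and chemokine genes held 76 genes other than the members, of which 70 were tested, 35 fell, 15 rose and 20 did not pass, beside 30.0% lower and 28.8% higher among all genes. Spi1 and Rab7b of these lists, and the myeloid markers Adgre1 and Ly6g, were not analysed here.

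Cd83 encodes a surface protein of mature dendritic cells and activated lymphocytes that keeps MHC class II and CD86 on the surface. It had 131.9, 112.9 and 110.5 CPM in TCM replicates 1 to 3, against 142.3, 133.5 and 129.9 CPM in FCM replicates 1 to 3. The highest TCM library lay between the FCM libraries, and replicate 1 was the highest of each group. The mean was 118.4 ± 11.7 CPM in TCM and 135.2 ± 6.40 CPM in FCM (SD, n = 3 each), a log2 change of -0.19 with a 95% interval of -0.49 to 0.11 (edgeR adjusted p = 0.234). Without the replicate 1 libraries the gene (chromosome 13, 43784775 to 43803132) passed at -0.25 (edgeR adjusted p = 0.00865), and with the trend on transcript length removed it passed at -0.42 (edgeR adjusted p = 0.0234).

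Other genes linked to dendritic cell maturation, 19 in all and each tested, gave 11 falls, 4 rises and 4 that did not pass (median log2 change -0.58). Among all genes 30.0% were lower and 28.8% higher. Cd80, a ligand of CD28 and CTLA-4, had 57.2, 56.2 and 55.7 CPM in TCM replicates 1 to 3 and 14.8, 11.3 and 14.6 CPM in FCM replicates 1 to 3. Its 4.16-fold rise (edgeR adjusted p = 4.25e-06) stood beside rises of Ccr7, Traf1 and Samsn1. Birc3, an inhibitor of cell death, fell 2.05-fold and Nudt17, a nucleotide hydrolase gene, 4.82-fold.

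The chemokine Ccl22 was higher in TCM. It had 574.9, 653.1 and 720.0 CPM in TCM replicates 1 to 3, against 313.0, 435.7 and 418.9 CPM in FCM replicates 1 to 3. The groups did not overlap, and replicate 1 was the lowest of each. The gene (chromosome 8, 94745590 to 94751699) averaged 649.3 ± 72.6 CPM in TCM and 389.2 ± 66.5 CPM in FCM (SD, n = 3 each), a 1.67-fold rise (log2 change 0.74 ± 0.18 SE, edgeR adjusted p = 0.00738). With the trend on transcript length removed it was 0.47 and did not pass (edgeR adjusted p = 0.0526).

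Ccl17, the other ligand of CCR4, went the other way. It had 0.692, 1.31 and 1.24 CPM in TCM replicates 1 to 3, against 4.04, 6.36 and 6.48 CPM in FCM replicates 1 to 3, a 5.28-fold fall (edgeR adjusted p = 0.000137). The receptor gene Ccr4 had 23.8, 19.1 and 21.5 CPM in TCM replicates 1 to 3 and 14.5, 14.2 and 15.2 CPM in FCM replicates 1 to 3. Its 1.47-fold rise (edgeR adjusted p = 0.00377) did not pass with library totals alone (adjusted p = 0.172). The chemokine partner list holds these 2 and genes that activated T cells secrete beside Xcl1. Of its 9 genes 2 rose, 4 fell and 3 did not pass (median -0.33), beside 28.8% higher and 30.0% lower among all genes.

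Among the secreted partners, Ifng, the interferon gamma gene, had 1579, 2103 and 2354 CPM in TCM replicates 1 to 3 and 812.0, 746.9 and 869.2 CPM in FCM replicates 1 to 3, a 2.49-fold rise (edgeR adjusted p = 0.000636). Ccl3 and Ccl4, inflammatory chemokines, and Ccl1 fell, while Ccl5 did not pass. Without TCM replicate 2, FCM replicate 2 or FCM replicate 3, 3 genes of this list fell in place of 4, and since Ccl1 and Ccl17 kept their calls, the call of Ccl3 or Ccl4 did not hold there. Ccl1 had 3 counts summed over TCM and 991 over FCM, a level 229.8 times higher in FCM (95% exact counting interval 78.4 to 1116). Xcl1 and Ifng, which activated CD8+ T cells are known to secrete together, thus had opposite calls in the same 6 libraries.

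**Figure D3:**
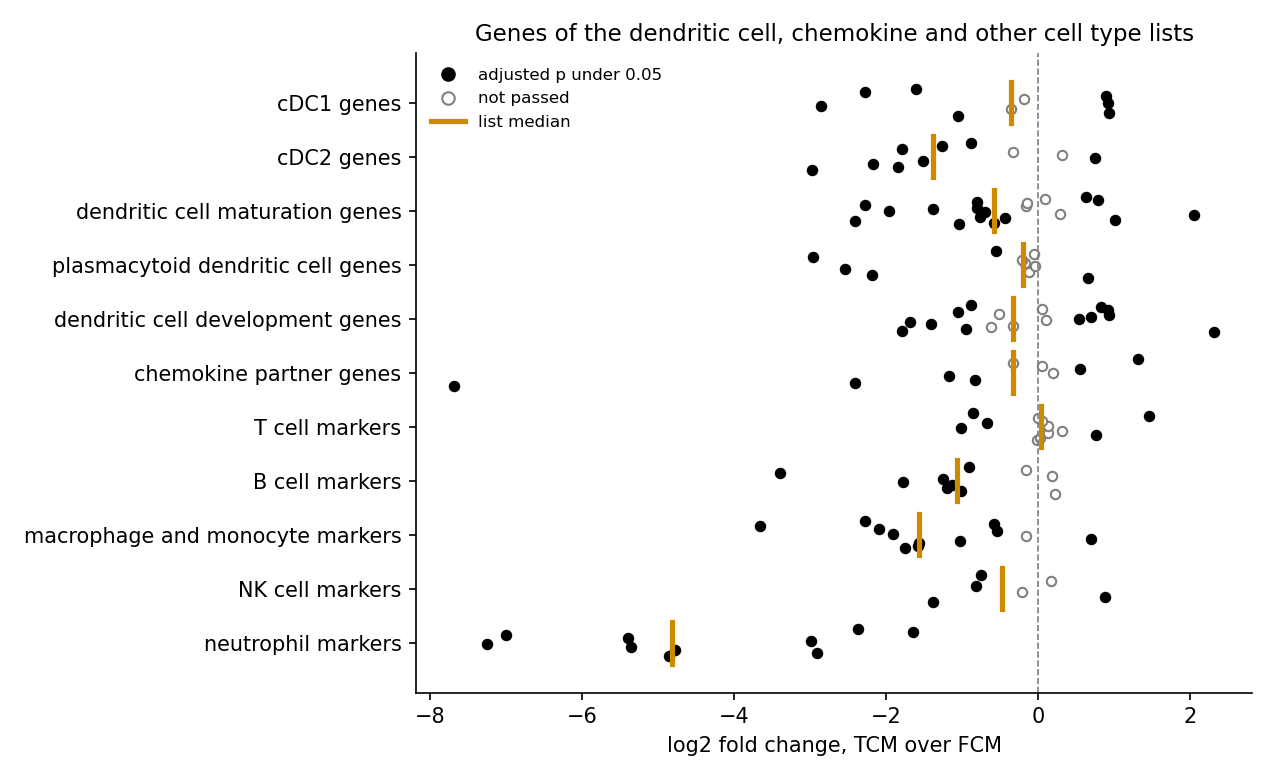
Log2 fold change, TCM over FCM by the count table's header (horizontal axis), of each tested gene in 11 gene lists (rows); filled points passed an adjusted p of 0.05 in edgeR and orange bars are list medians. The neutrophil list has the lowest median (-4.82), the macrophage and monocyte list lies at -1.57, and the T cell list lies at 0.048.

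Per length of their exons in GENCODE M21, the members spanned a wide range of levels, given here as RPKM, which is CPM per kilobase of exon. In TCM the order by mean RPKM was Ccl22 (279.3), Xcl1 (206.6), Irf8 (127.6), Cd83 (46.0), Batf3 (20.6), Zbtb46 (0.920), Itgax (0.891), Flt3 (0.466) and Clec9a (0.0165). There Ccl22 and Xcl1 overlapped over the libraries, as did Xcl1 and Irf8, and Zbtb46 and Itgax. In FCM it was Xcl1 (2080.3), Ccl22 (167.4), Irf8 (125.0), Cd83 (52.6), Itgax (3.30), Batf3 (2.59), Clec9a (1.44), Zbtb46 (0.889) and Flt3 (0.521), and no neighbours in that order overlapped. Xcl1 was the highest member in each FCM library, while Batf3 stood above Itgax in TCM and below it in FCM.

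**Figure D4:**
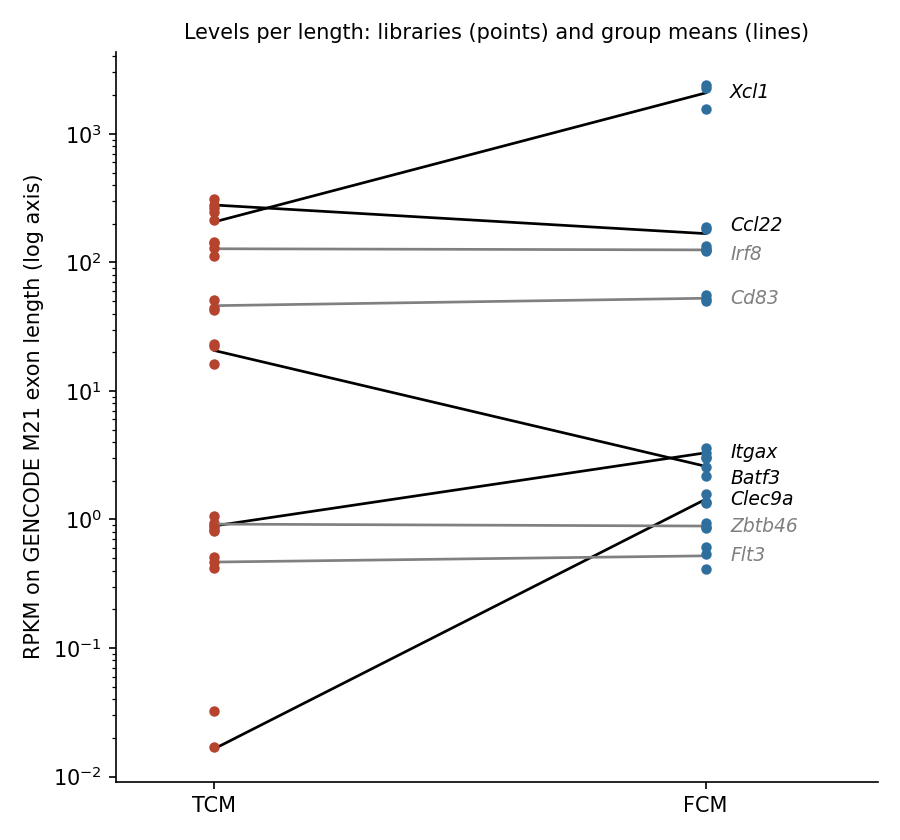
RPKM on a log axis (vertical) for 9 members in TCM (left) and FCM (right) by the count table's header; points are libraries, lines join group means, black lines passed an adjusted p of 0.05 in edgeR and grey lines did not. Xcl1 and Clec9a have the steepest lines toward FCM and Batf3 the steepest toward TCM; Xcr1 and the TCM library with 0 Clec9a counts cannot be drawn on a log axis.

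The genes whose log2 CPM, centred on each gene's mean, lay nearest to that of Xcl1 over the 6 libraries were Kctd15 (root mean square difference 0.19), Gm5431 (0.21) and a row whose symbol reads as a calendar date, which is not named. Kctd15 was much rarer, at 0.319, 0.327 and 0.506 CPM in TCM replicates 1 to 3 and 3.63, 4.79 and 5.31 CPM in FCM replicates 1 to 3. Gm5431 had 0.426, 0.917 and 0.843 CPM in TCM replicates 1 to 3 and 7.94, 8.46 and 9.34 CPM in FCM replicates 1 to 3. By CPM, replicate 1 was the lowest library of its group in Kctd15 and Gm5431 as in Xcl1. Both genes were picked for likeness to Xcl1 over these libraries, so the shared pattern is no separate result. In TCM replicates 1 to 3 Kctd15 had only 6, 5 and 9 counts.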

How the data were processed

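Values are from 6 libraries, 3 per group, assigned to samples by column title. The authors' count table, as deposited, gives whole exon reads for each gene symbol. The deposited normalized table holds a signal: read numbers that the authors scaled by a factor for each library. The submitters' processing notes name STAR 2.7.2d, DESeq2 1.28.1 and mm10 without their roles, and the sources used here give no counting tool, gene models or strandedness. No member overlaps another tested gene in GENCODE M21. The 92 spike-in rows were left out.

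After filterByExpr and TMM scaling, genes were tested in edgeR 4.0.16 (R 4.3.3, quasi-likelihood, group as sole term, Benjamini-Hochberg over 12423 genes). The code was checked on simulated counts with few changed genes, balanced up and down, and no replicate effect. That check does not give the error rate or cover the scaling in data where most genes are called. DESeq2 1.42.0 was an alternative. A standard error is the log2 change divided by the square root of F. Read numbers recovered from the normalized columns were whole for 100% of nonzero values (tolerance 0.1), and edgeR on these, by that table's header, called 3726 genes higher and 3584 lower. The replicate block, an alternative setting, paired libraries by replicate number, which no label states to mark a shared animal or batch. Deviations of same-numbered libraries from their group means correlated at 0.60, 0.15 and 0.36 for replicates 1, 2 and 3. However, TCM replicate 2 correlated more with FCM replicate 3 (0.27) than with its own number, and TCM replicate 3 with FCM replicate 2 (0.42). Members and lists were chosen with earlier results of these data known. The text names all members, up to 3 genes of a dendritic cell or chemokine list with the smallest p, fixed partners, and the 3 genes nearest to Xcl1; other list genes, named to complete a count, were chosen after their values were seen. Lists are described by counts and medians, with no test of the list.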

Additional observations from a re-analysis of the deposited data

How the results depend on the processing

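Over 13 settings that keep the count table's header, 7 of the 9 tested members kept their direction or lack of a call, namely all but Ccl22 and Cd83, and so did 20 of the 22 list genes followed singly, the exceptions being Flt3l and Ccr4. Other list genes, named to complete a count, were not followed singly, and some of them lost their call. Bst2 lost it in 6 settings, Gzma with the transcript length trend removed and Cd14 with library totals alone. With the transcript length trend removed, 1 member was higher in place of 2, since Ccl22 lost its call. With library totals alone, 2364 genes were higher in place of 3584. With the replicate block, 4509 genes were higher and 4594 lower, Xcl1 stood at -3.35 (edgeR), and no member changed its call. Leaving out 1 library at a time gave 2878 to 4030 genes higher and 2818 to 4199 lower, with 2 members higher and 3 lower each time. Without both replicate 1 libraries 4 members were lower, the fourth being Cd83. Over the settings Xcl1 ran from -3.86 to -3.12, Batf3 from 2.57 to 3.14 and Itgax from -2.10 to -1.82 (log2). If the normalized table's titles are used instead, 35 genes of the dendritic cell and chemokine lists were higher and 15 lower, and the log2 fold changes reversed to Xcl1 3.33, Clec9a 6.22, Batf3 -2.98, Itgax 1.89, Ccl22 -0.74, Naaa 2.85, Wdfy4 1.60, Tlr3 2.28, Klf4 1.78, Clec12a 1.85, Notch2 1.26, Cd80 -2.06, Birc3 1.03, Nudt17 2.27, Ccl17 2.40, Irf7 2.54, Siglech 2.96, Ccr9 2.18, Batf2 1.79, Csf2rb 1.68, Batf -2.33, Flt3l -0.55, Ccl1 7.68, Ifng -1.31, Ccr4 -0.56, Cd8a 0.67 and Ncr1 0.75. Depth limits what can be said of Xcr1, with 3 counts in all, and of Clec9a, Siglech, Ccr9 and Ccl1 in TCM.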
